A study of Mus musculus with 12 samples.

Results

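The genes described here encode the proteins of the cytosolic ribosome, the particle that translates mRNA. They were taken as the rows of the gene table whose symbol has the form of a ribosomal protein name (Rpl, Rps or Rplp followed by a number, with the ending a, x, l, l1 or al where there is one), which matched 83 of 24502 rows. Of these, 52 belong to the large subunit by name and 31 to the small subunit. The name rule leaves out genes for ribosomal proteins with other names (such as Rpsa, Rps3a1 and Fau), and it takes in Rps4l, Rpl6l and Rpl32l, which the GENCODE M21 annotation of the GRCm38 genome lists as pseudogenes. The other 80 members are annotated as protein coding.

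The RNA came from sorted regulatory T cells (Treg cells, the Foxp3-expressing CD4+ T cells that restrain immune responses) of mice 11 weeks old. The groups, of 3 libraries each, were stimulated Gpx4-deficient cells, unstimulated Gpx4-deficient cells, stimulated wild-type cells and unstimulated wild-type cells. The Gpx4-deficient cells carried Foxp3Cre and Gpx4fl/fl, in which Cre recombinase made from the Foxp3 locus removes the loxP-flanked Gpx4, a glutathione peroxidase that reduces lipid hydroperoxides in membranes. The other mice are labelled only as WT, so an effect of Foxp3Cre and an effect of losing Gpx4 cannot be told apart. For stimulation the cells lay for 4 h on plates coated with anti-CD3 and anti-CD28 (5 µg/ml), which engage the T cell receptor complex and its costimulator. No culture time is stated for the unstimulated cells, so stimulation and culture cannot be told apart. Nothing states that the libraries of a group came from separate mice, so p-values reflect variation among libraries alone, technical variation included. The library identifiers of the genotypes run in separate blocks, and the labels do not say what these identifiers record.

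Each ribosomal subunit is built from ribosomal RNA and a set of proteins that are present in about equal numbers, and a surplus of an unassembled ribosomal protein is normally degraded. Their mRNAs begin with a cytosine followed by a run of pyrimidines, the 5′ terminal oligopyrimidine (TOP) motif, through which mTOR and the RNA-binding protein Larp1 control their translation together. Resting T cells hold few ribosomes, and antigen receptor signalling is known to raise ribosome production, through translation of these mRNAs as well as through their level.

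The start sites of 10 members called on stimulation are shown first, because the TOP motif lies there. RefSeq start sites (GRCm38.p6) were found for 61 of the 83 members, with 72 windows in all since some genes have several starts. Each line gives the 50 bases before the start and the first 10 bases of the transcript. Capitals mark the first run of at least 5 C or T that begins with C within 10 bases of the start on the sense strand. Later runs that meet this rule stay in lower case, as in Rps18, where such a run spans the annotated start, and in Rps27l. The first 5 genes were higher after stimulation in at least 1 genotype, and the other 5 were lower. Rps24 and Rps27l have 2 annotated starts each, and the first is shown.
Rpl7l1, chr17:46782647-46782706, minus strand: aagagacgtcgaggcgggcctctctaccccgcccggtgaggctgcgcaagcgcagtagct
Rpl5, chr5:107900478-107900537, plus strand: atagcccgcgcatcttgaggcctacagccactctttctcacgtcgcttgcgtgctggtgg
Rpl36al, chr12:69184058-69184117, minus strand: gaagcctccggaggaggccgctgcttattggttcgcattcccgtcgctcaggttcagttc
Rps24, chr14:24490628-24490687, plus strand: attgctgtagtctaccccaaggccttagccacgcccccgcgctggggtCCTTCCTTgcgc
Rps27l, chr9:66946036-66946095, plus strand: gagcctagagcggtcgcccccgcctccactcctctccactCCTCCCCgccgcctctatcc
Rpl13, chr8:123102300-123102359, plus strand: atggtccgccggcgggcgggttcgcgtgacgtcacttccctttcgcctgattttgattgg
Rpl14, chr9:120571467-120571526, plus strand: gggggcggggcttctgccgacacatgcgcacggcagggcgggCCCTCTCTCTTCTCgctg
Rps18, chr17:33955656-33955715, minus strand: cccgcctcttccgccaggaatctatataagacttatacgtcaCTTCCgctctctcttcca
Rpl4, chr9:64173337-64173396, plus strand: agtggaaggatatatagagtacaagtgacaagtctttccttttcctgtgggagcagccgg
Rpl41, chr10:128549159-128549218, minus strand: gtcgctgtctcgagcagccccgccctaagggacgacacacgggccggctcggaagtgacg
The marked run was present in members of both directions (Rps24 and Rps27l, Rpl14 and Rps18) and was not found in others of both (Rpl7l1, Rpl5 and Rpl36al, Rpl13, Rpl4 and Rpl41). At the second start of Rps24 and of Rps27l no such run was found. Of members called lower and not shown here, Rpl19 had the run at both of its starts and Rps19 at 1 of 3. These starts are the annotated ones and may lie some bases from the start used in Treg cells.

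Over all member windows the pyrimidine run was found in 40 of 72 (55.6%), against 30.7% of the 32851 windows of all genes. Other motifs were searched on both strands in the 300 bases from 250 before the start to 50 after it. CCGGAA, the core that ETS factors such as GABP recognise, was in 47.2% of member windows and 14.9% of all windows. GGGCGG, the core of the Sp1 site, was in 59.7% and 35.7%, and AAGATGG, the core of the YY1 site, in 16.7% and 6.34%. CACGTG, the E-box that MYC binds, was in 11.1% of member windows and 7.15% of all windows, and TATAAA in 11.1% and 13.6%. A match is a description of the letters and not a bound site, and windows of a gene with several starts overlap.

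The deposited values are expected counts, estimates that divide a read between the transcripts it fits. Levels here are CPM, counts scaled to library size with edgeR's TMM factors. Calls were made where the p, adjusted over all 14827 genes tested by the Benjamini-Hochberg method, lay under 0.05. Of the 83 members, 81 passed the filter on low counts. The pseudogene Rpl32l and the paralogue Rpl39l did not, with 27 and 54 counts in all 12 libraries together. Library totals ran from 24629230 to 31879267 counts. Gpx4 had 3.34 to 12.3 CPM in the 6 Gpx4-deficient libraries, against 69.2 to 172.1 CPM in the 6 wild-type libraries. Summed Treg markers had 2999 to 7603 CPM in every library, while the summed markers of CD8 and NK, B, plasma, myeloid cells, erythroid cells with platelets and stromal or epithelial cells stayed at or below 242.9 CPM per list. The Treg list includes Cd3e and Cd4, which are not particular to Treg cells, and Foxp3 alone had 20.6 to 75.9 CPM. Stimulated Gpx4-deficient replicate 3 and unstimulated Gpx4-deficient replicate 1 stood apart from their groups in earlier results of these data, and counts without them are given below.

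Reads are hard to assign among these genes, because the genome holds many near-copies. Stretches of 50 bases of a member's transcript were also found in transcripts of other genes for a median of 52.1% of the transcript, for over 50% in 44 members and for over 90% in Rps27, Rpl9, Rpl10 and Rps12. Rpl39l shared none. Counts were not whole in all 12 libraries for 59 members and whole in all 12 for 12 members, at a tolerance of 0.005. The values of most members are therefore estimates shared with paralogues and pseudogenes. Among the 16 members called below, Rps27l and Rpl7l1 had whole counts throughout.

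Ribosomal protein mRNA took up between 2.24% and 3.12% of counts per library. The members together held 2.64%, 2.24% and 2.65% of counts in stimulated Gpx4-deficient replicates 1, 2 and 3, against 2.55%, 2.72% and 2.65% in the stimulated wild-type replicates. Without stimulation they held 3.12%, 2.70% and 3.03% in Gpx4-deficient replicates, against 2.64%, 3.08% and 2.91% in wild-type replicates. The genotypes overlapped in both states, and the differences in mean share were -0.128 and 0.0695 percentage points (exact two-sided permutation test, p = 0.6 for both).

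Stimulated libraries had the lower mean share in both genotypes. The mean was 2.51% ± 0.232 in stimulated and 2.95% ± 0.218 in unstimulated Gpx4-deficient cells (SD, n = 3 each), a difference of -0.438 points with no overlap (exact two-sided permutation test, p = 0.1). In wild-type cells the mean was 2.64% ± 0.0863 with stimulation and 2.88% ± 0.223 without (SD, n = 3 each), a difference of -0.241 points with overlap (exact two-sided permutation test, p = 0.3). With 3 libraries against 3, 0.1 is the smallest p this test can give. In bulk RNA a lower level from fewer cells of a kind and from less RNA per cell cannot be told apart, and a share says nothing of the amount of ribosomal protein mRNA per cell.

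The 178 ribosomal protein pseudogenes named as such in the table showed a different picture. Their share was 0.0383%, 0.0330% and 0.0303% in stimulated Gpx4-deficient replicates, below 0.0559%, 0.0514% and 0.0578% in the stimulated wild-type replicates. The exact two-sided permutation test gave p = 0.1, the smallest possible. The same libraries had the highest share of mitochondrially encoded RNA, 2.84% to 3.72% against 1.18% to 1.37% in stimulated wild-type libraries, and the most genes at 0 counts that reach 5 CPM elsewhere, 107 to 190 against 25 to 69 in stimulated wild-type libraries. The part of these library properties in the members' values was not tested.

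**Figure D1:**
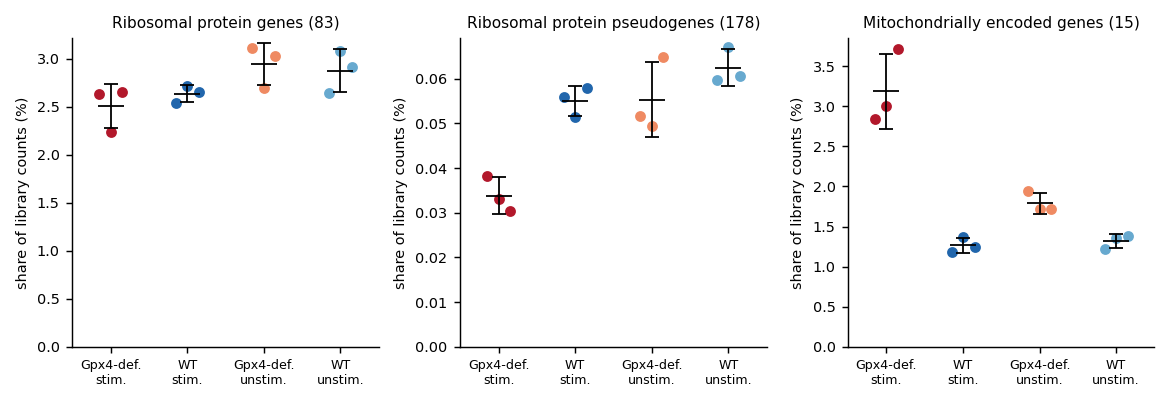
Share of library counts (%) held by the 83 ribosomal protein genes, the 178 ribosomal protein pseudogenes and the 15 mitochondrially encoded genes in each of the 12 libraries. Points are libraries, horizontal bars are group means and error bars are SD (n = 3). The ribosomal protein shares of the genotypes overlap, while the stimulated Gpx4-deficient libraries lie lowest for pseudogenes and highest for mitochondrial genes.

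Levels differed widely among the members, although their proteins are needed in about equal numbers. The 81 tested members ranged from 1.20 to 1745 CPM on average over the 12 libraries, with a median of 227.4 CPM, and the 5 most abundant made up 25.3% of the members' CPM. In stimulated wild-type replicate 1 the highest member was Rplp0, the base of the stalk that recruits elongation factors.

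Per kilobase of annotated transcript, the highest levels included 1733 CPM per kb for Rpl13, 1218 for Rps2 and 947.5 for Rps27. The lowest were 8.49 CPM per kb for Rps4l, 1.37 for Rpl6l, 0.217 for Rpl39l and 0.210 for Rpl32l. This order depends on the length used. Rpl13 took rank 1 by transcript length, rank 3 by coding length and rank 6 by the union of exons, and Rps27 ranks 4, 9 and 16.

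The large subunit members summed to between 1.65 and 1.77 times the small subunit members in every library. This ratio was 1.69, 1.74 and 1.66 in stimulated Gpx4-deficient replicates, against 1.77, 1.76 and 1.75 in stimulated wild-type replicates. Without stimulation it was 1.74, 1.76 and 1.67 in Gpx4-deficient and 1.74, 1.65 and 1.70 in wild-type replicates. The stimulated groups did not overlap in this ratio, and the unstimulated groups did.

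Stimulation moved few ribosomal protein genes in wild-type Treg cells. Of 81 members tested, 5 were called (6.17%), beside 11.5% of all genes tested. Of these 3 rose, beside 6.12% of all genes, and 2 fell, beside 5.41%. Groups of 21 members (25.9%) did not overlap, 9 higher and 12 lower, beside 42% of all genes (19.8% higher and 22.1% lower). Both shares were below those of all genes. The median log2 fold change of the members was -0.05, beside -0.03 over all genes tested, and it turned to 0.02 without stimulated replicate 1. Rpl7l1, Rpl5 and Rpl36al rose, and Rpl13 was among those that fell.

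Rpl7l1, a paralogue of Rpl7 that in human cells is found on precursors of the large subunit, moved most. It had 273.9, 250.8 and 253.1 CPM in stimulated wild-type replicates, against 113.5, 122.3 and 108.0 CPM in unstimulated ones. All stimulated libraries were above all unstimulated ones. Its log2 fold change was 1.18 (SE 0.20, adjusted p = 0.0022 by edgeR), a 2.26-fold rise. The gene lies at chr17:46773907-46782672 on the minus strand (GRCm38) with 7 exons, and 9.03% of its transcript was shared with other genes.

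Rpl7 itself, its abundant relative in the mature large subunit, had 742, 736 and 787.1 CPM in stimulated wild-type replicates and 661.2, 810.2 and 704.2 CPM in unstimulated ones. These overlapped, with a log2 change of 0.06 (SE 0.16, adjusted p = 0.908 by edgeR).

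Rpl5, which carries the 5S ribosomal RNA into the large subunit together with Rpl11 and can bind the p53 regulator Mdm2, had 123, 140.5 and 127.1 CPM in stimulated wild-type cells, against 75.6, 95.4 and 87.1 CPM in unstimulated ones. The groups did not overlap, and the log2 fold change was 0.60 (SE 0.18, adjusted p = 0.0488 by edgeR). Its partner Rpl11 gave -0.13 (SE 0.18, adjusted p = 0.767 by edgeR). Rpl36al, a paralogue of Rpl36a on another chromosome, had 135.3, 184.8 and 148.8 CPM with stimulation and 88.0, 102.8 and 104.9 CPM without (log2 fold change 0.67, SE 0.20, adjusted p = 0.0498 by edgeR), again with no overlap.

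Rpl13, a large subunit protein and among the most abundant members, had 1209, 1186 and 1202 CPM in stimulated wild-type cells, against 1417, 1620 and 1526 CPM in unstimulated ones. Its log2 fold change was -0.34 (SE 0.10, adjusted p = 0.0374 by edgeR). Its groups did not overlap. The Rpl7l1 call held without any 1 of the 6 libraries. Rpl5 and Rpl36al lost theirs without each of the 6 (adjusted p up to 0.2 and 0.234), and Rpl13 without each but unstimulated replicate 1 (up to 0.14). The count was 3 without unstimulated replicate 1 and 1 without any other library. With DESeq2's size factors, upper-quartile scaling or total counts in edgeR, 5 members were again called, of which 1 was higher and 4 lower.

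Levels of markers of other cells also differed between these groups. Summed markers of monocytes and macrophages had 22.0 to 59.3 CPM in stimulated and 133.3 to 242.9 CPM in unstimulated wild-type libraries, with Lyz2 and Csf1r called lower of 4. Those of CD8 and NK cells had 45.6 to 55.8 CPM in stimulated and 106.3 to 133.5 CPM in unstimulated wild-type libraries, with 0 of 5 called by edgeR and 1 at an unadjusted p under 0.05. Their part in the members' values was not tested.

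In Gpx4-deficient Treg cells stimulation moved more members by the same fit over all 12 libraries. Of 81, 16 were called (19.8%), beside 15.3% of all genes tested, with 5 higher (7.45% of all genes) and 11 lower (7.83% of all genes). The order of the genotypes reversed when each comparison was fitted to its own 6 libraries. That fit called 5 members higher and 7 lower in wild-type cells, and 2 higher and 3 lower in Gpx4-deficient cells. Shares of all genes called in the fits to 6 libraries are not given here, so the reversal cannot be read as particular to the members. Groups of 25 members (30.9%) did not overlap, 7 higher and 18 lower, beside 29.8% of all genes (12.9% higher and 16.9% lower). The median log2 fold change was -0.08, beside -0.02 over all genes, and it turned to 0.05 without stimulated replicate 2. The members called higher were of middling or low level, with means over all libraries of 46.4 to 181.6 CPM. Those called lower were abundant, at 261.1 to 1745 CPM. All 5 members called in wild-type cells were among the 16 and moved in the same direction. In the same comparison 13 of 15 mitochondrially encoded genes were called higher, at 2.84% to 3.72% of counts in stimulated and 1.72% to 1.94% in unstimulated Gpx4-deficient libraries. Summed markers of CD8 and NK cells had 16.8 to 23.8 CPM in stimulated and 69.5 to 106.3 CPM in unstimulated Gpx4-deficient libraries, with Nkg7 and Gzma called lower of 5 and Klrd1, Ncr1 and Gzma at 0 in all 3 stimulated libraries. The part of either in the members' values was not tested.

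Rps27l, a paralogue of Rps27 that is a known p53 target, had the highest fold change. It reached 52.99, 62.8 and 94.6 CPM in stimulated Gpx4-deficient replicates, against 21.4, 18.9 and 27.8 CPM in unstimulated ones. The lowest stimulated library was well above the highest unstimulated one. Its log2 fold change was 1.63 (SE 0.28, adjusted p = 0.00206 by edgeR), a 3.09-fold rise. In wild-type cells it had 55.9, 56.6 and 59.7 CPM with stimulation and 32.3, 42.6 and 30.6 CPM without, also without overlap (log2 fold change 0.71, SE 0.27, adjusted p = 0.139 by edgeR). The difference between the genotypes' responses was 0.92 (SE 0.39, adjusted p = 0.547 by edgeR), so it was not called.

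Rps27, the form that makes up most of the message of that pair, had 300.1, 315.1 and 514.9 CPM in stimulated Gpx4-deficient cells and 455.3, 363.0 and 362.3 CPM in unstimulated ones. These overlapped, and the highest value came from replicate 3, which stood apart.

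Rpl7l1 had 187.4, 188.1 and 225.6 CPM in stimulated Gpx4-deficient cells, against 53.5, 92.4 and 98.5 CPM in unstimulated ones. The log2 fold change of 1.30 (SE 0.20, adjusted p = 0.00111 by edgeR) was close to that in wild-type cells, and the interaction was 0.12 (SE 0.28, adjusted p = 0.973 by edgeR). Rpl5 and Rpl36al also rose, by 0.75 (SE 0.18, adjusted p = 0.0137 by edgeR) and 0.67 (SE 0.20, adjusted p = 0.0383 by edgeR).

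Rps24, a small subunit protein whose gene is mutated in some patients with Diamond-Blackfan anaemia, had 244.2, 217.7 and 351.0 CPM in stimulated Gpx4-deficient cells, against 150.9, 120.7 and 157.3 CPM in unstimulated ones. It did not overlap, with a log2 change of 0.92 (SE 0.19, adjusted p = 0.00737 by edgeR). In wild-type cells Rps24 had 149.2, 188.8 and 162.6 CPM with stimulation and 135.8, 166.3 and 134.4 CPM without, which overlapped (log2 fold change 0.20, SE 0.19). The interaction was 0.73 (SE 0.27, adjusted p = 0.472 by edgeR).

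Rpl13 had the lowest adjusted p of the members that fell. Its level was 1044, 927 and 1113 CPM in stimulated Gpx4-deficient cells, against 1835, 1501 and 1647 CPM in unstimulated ones, with a log2 change of -0.69 (SE 0.10, adjusted p = 0.000477 by edgeR). Its groups did not overlap.

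Rps19, the small subunit protein most often mutated in Diamond-Blackfan anaemia, had 597.8, 431.7 and 520.5 CPM in stimulated and 814.5, 743.8 and 802.0 CPM in unstimulated Gpx4-deficient cells. It fell by 0.61 on the log2 scale (SE 0.12, adjusted p = 0.00614 by edgeR). Rpl3, which reaches towards the peptidyl transferase centre, fell by 0.50 (SE 0.11, adjusted p = 0.00812 by edgeR). Rpl4, which lines the exit tunnel of the nascent protein, fell by 0.35 (SE 0.09, adjusted p = 0.0191 by edgeR).

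Also called lower in Gpx4-deficient cells were Rps18 in the head of the small subunit (-0.64), Rpl14 (-0.41), Rpl41 (-0.53) and Rpl19 (-0.36), with adjusted p between 0.0253 and 0.0465 by edgeR. Rpl41 and Rpl19 fall outside the rule for named genes. In all 7 calls held without any 1 of the 6 libraries, among them Rpl13, Rps19, Rpl3, Rpl7l1, Rps27l and Rps24. The other 9 calls were lost without 1 library or more, with adjusted p up to 0.174. Unstimulated replicate 3 decided most, since without it the count was 7 and all 9 were lost. Leaving out unstimulated replicate 1 or 2 lost 5 and 4 of these calls, and stimulated replicates 1, 2 and 3 lost 2, 5 and 4. Without both libraries that stood apart, 8 members were called.

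**Figure D2:**
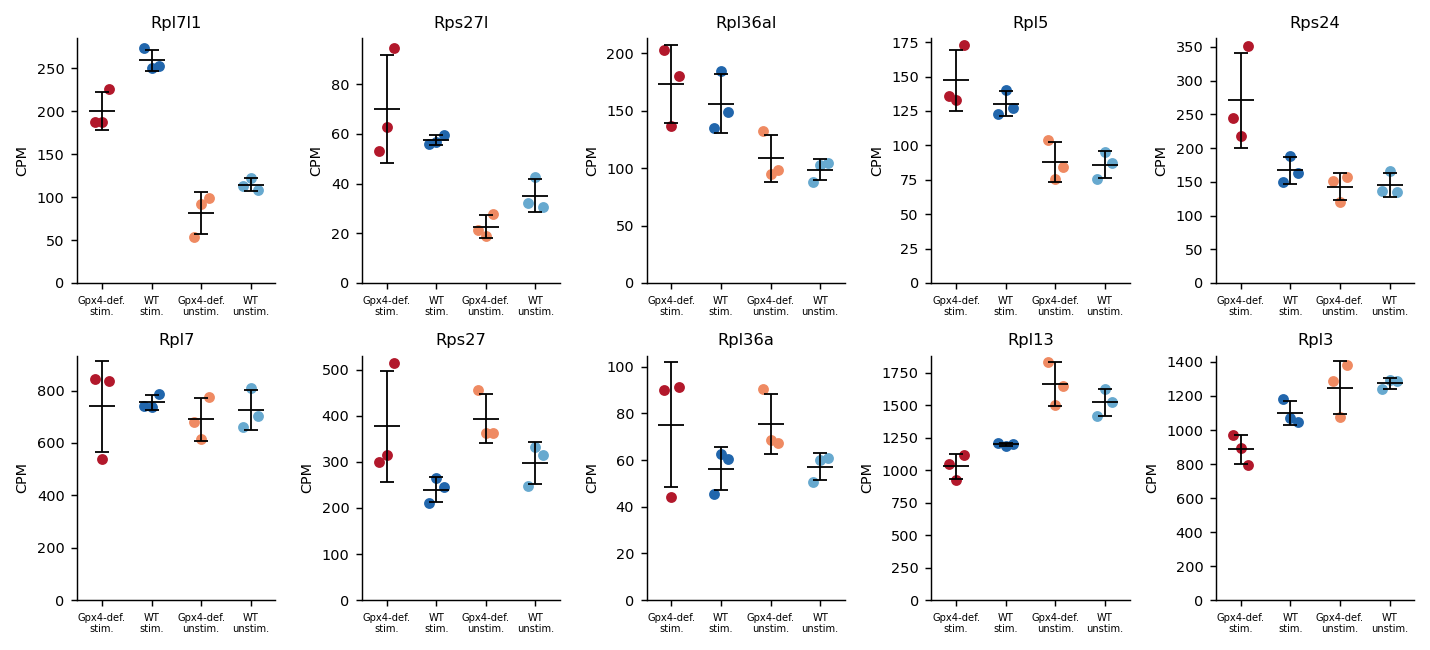
Levels (CPM) of 10 members in the 12 libraries. Points are libraries, horizontal bars are group means and error bars are SD (n = 3). Rpl7l1, Rps27l, Rpl36al and Rpl5 are higher in stimulated cells of both genotypes, Rps24 reaches 217.7 to 351.0 CPM in stimulated Gpx4-deficient cells, Rpl7, Rps27 and Rpl36a overlap between stimulated and unstimulated cells of the same genotype, and Rpl13 and Rpl3 lie lower in stimulated cells.

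The stimulation responses of the genotypes share no library. They had the same sign in 65 of 81 members (80.2%), beside 71.5% of all genes tested, and a rank correlation across these members of 0.711, beside 0.51 across all genes tested. Genes are not independent replicates, and members share reads. A call in Gpx4-deficient cells and none in wild-type cells does not show a difference. The interaction, the Gpx4-deficient response less the wild-type response, called 0 of 81 members by edgeR, beside 0.202% of all genes (0.027% higher and 0.175% lower), with 5 members at an unadjusted p under 0.05 and 0 called by DESeq2.

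**Figure D3:**
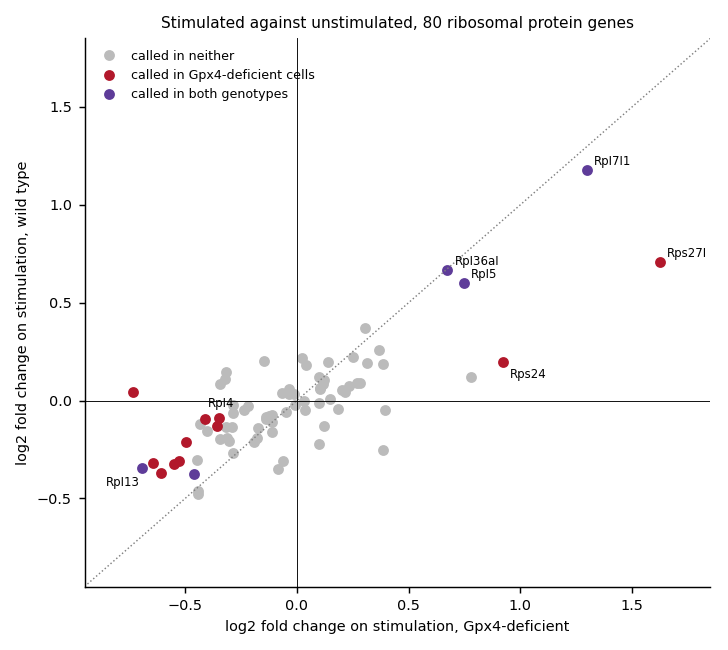
Log2 fold change on stimulation in Gpx4-deficient cells (x axis) and wild-type cells (y axis), 1 point per gene, for the tested members other than Rps4l. Colours show members called in both genotypes, in Gpx4-deficient cells or in neither. The dotted line marks equal responses, and Rpl7l1, Rpl36al and Rpl5 lie near it while Rps27l and Rps24 lie furthest from it among those named.

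Besides Rps27l and Rps24, the members with the largest interaction among those of at least 5 in mean log2 CPM included Rpl38, which in mice affects translation of Hox mRNAs, at 0.66 (SE 0.36, adjusted p = 0.648 by edgeR). Without stimulated Gpx4-deficient replicate 1 the interaction called 2 members by edgeR, among them the pseudogene Rps4l (adjusted p = 0.0216).

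Genes that serve the ribosomal proteins were also among those that rose on stimulation. Among 10 chaperones and importers of ribosomal proteins, 5 rose in wild-type and 4 in Gpx4-deficient cells and 0 fell. Ltv1, an assembly factor of the small subunit, rose by 1.81 in wild-type (SE 0.19, adjusted p = 4.5e-05 by edgeR) and 1.55 in Gpx4-deficient cells (SE 0.19, adjusted p = 0.000148 by edgeR). Of 17 genes that control TOP mRNAs, 7 rose and 0 fell in each genotype. Larp1 rose by 1.63 in both, and Eif4ebp1, a translational repressor that mTOR inactivates, by 3.92 in wild-type and 3.46 in Gpx4-deficient cells. Of 18 other mRNAs with a TOP motif, 3 rose and 0 fell in wild-type cells, and 5 rose and 2 fell in Gpx4-deficient cells. Over all genes, 6.12% were called higher in wild-type and 7.45% in Gpx4-deficient cells, and no difference between lists was tested.

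Genes around Mdm2 and p53 and host genes of small nucleolar RNAs gave mixed results. In the list around Mdm2 and p53, 2 of 10 rose in each genotype, Cdkn1a and Sesn2, and Ccng1 fell in Gpx4-deficient cells. Of 12 host genes of small nucleolar RNAs, 1 rose in wild-type cells, and 2 rose and 1 fell in Gpx4-deficient cells. The shares of all genes called were 6.12% higher and 5.41% lower in wild-type cells, and 7.45% and 7.83% in Gpx4-deficient cells. These lists are small, and no difference from all genes was tested.

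Between genotypes no member was called. In unstimulated cells 0 of 81 passed by edgeR, beside 0.0674% of all genes tested (0.054% higher and 0.0135% lower), with 4 members at an unadjusted p under 0.05 and 0 called by DESeq2. In stimulated cells 0 of 81 passed by edgeR, beside 2.27% of all genes (1.03% higher and 1.25% lower), with 21 members at an unadjusted p under 0.05. Here the tools differed. DESeq2 called 11 members, 7 of them higher (Rps29, Rpl38, Rpl22, Rps24, Rps27, Rpl37a and Rpl23) and 4 lower (among them Rplp0, Rpl8 and Rpl4). With limma-voom 2 were called, among them Rplp0. The 2.27% is the share called by edgeR and is no background for these counts. Shares of all genes called by DESeq2 and limma-voom are not given here, so these counts do not set the members apart from other genes.

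Among the members that DESeq2 called higher, Rps29, a small zinc-binding protein of the small subunit, had 308.7, 256.2 and 414.5 CPM in Gpx4-deficient cells, against 151.4, 201.0 and 210.0 CPM in wild-type cells. The groups did not overlap, and the log2 fold change was 0.80 (SE 0.22, adjusted p = 0.0862 by edgeR). Rpl22, which developing αβ T cells need in mice, had 70.9, 64.6 and 106.1 CPM in Gpx4-deficient cells, against 50.8, 37.4 and 53.7 CPM in wild-type cells (0.77, SE 0.24, adjusted p = 0.132 by edgeR). Its paralogue Rpl22l1 had 77.0, 67.9 and 135.5 CPM in Gpx4-deficient cells, against 57.7, 67.4 and 65.6 CPM in wild-type cells (0.56, SE 0.27, adjusted p = 0.295 by edgeR).

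Rpl38 was also higher in every Gpx4-deficient library. It had 83.4, 71.7 and 133.0 CPM in Gpx4-deficient cells, against 50.1, 57.0 and 59.0 CPM in wild-type cells (0.80, SE 0.26, adjusted p = 0.14 by edgeR).

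The acidic stalk of the large subunit is formed by Rplp0 with Rplp1 and Rplp2. Rplp0 came closest to a call. It had 1031, 1010 and 1009 CPM in stimulated Gpx4-deficient cells, against 1614, 1300 and 1333 CPM in wild-type cells (-0.48, SE 0.11, adjusted p = 0.054 by edgeR), and the groups did not overlap. Rplp1 averaged 189.9 ± 15.7 and 175.0 ± 16.7 CPM in these groups, and Rplp2 averaged 169.5 ± 36.4 and 142.7 ± 23.6 CPM (SD, n = 3 each). Both overlapped, with log2 differences of 0.12 and 0.25.

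The count by edgeR moved with single libraries, and the calls of DESeq2 and limma-voom were not repeated with libraries left out. Without stimulated Gpx4-deficient replicate 1, 3 members were called in stimulated cells (all lower, among them Rpl18 and Rps4l). Without replicate 2, 5 were called (Rps29, Rps24, Rpl37a, Rpl23 and Rpl23a, all higher), and without replicate 3 only Rpl29, lower at -0.92 (adjusted p = 0.0395 by edgeR). Leaving out any 1 stimulated wild-type library gave 0. Without both libraries that stood apart, Rpl29 and Rpl8 were called lower. Shares of all genes called with libraries left out are not given here, so these counts do not set the members apart either.

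In unstimulated cells the largest differences among members of at least 5 in mean log2 CPM were those of Rps27l, Rpl7l1, Rps29 and Rpl30. Rps27l had 21.4, 18.9 and 27.8 CPM in Gpx4-deficient cells, against 32.3, 42.6 and 30.6 CPM in wild-type cells (-0.63, SE 0.27, adjusted p = 0.861 by edgeR). Rpl7l1 had 53.5, 92.4 and 98.5 CPM in Gpx4-deficient cells, against 113.5, 122.3 and 108.0 CPM in wild-type cells (-0.49, SE 0.20, adjusted p = 0.843 by edgeR). Both paralogues were lower in every Gpx4-deficient library, and they were the only members with separated groups in that direction. Rps29 gave 0.48 and Rpl30, a large subunit protein, 0.44, with adjusted p of 0.861 and 0.865 by edgeR.

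Groups that did not overlap were more frequent in stimulated cells. There 30 of 81 members (37.0%) had every Gpx4-deficient library on one side of every wild-type library, 14 higher and 16 lower, beside 20.1% of all genes tested (8.29% higher and 11.9% lower). In unstimulated cells it was 15 members (18.5%), 13 higher and 2 lower, beside 18.3% of all genes (8.42% higher and 9.89% lower). That share is near the background in total, and its members lie mostly on the higher side. The median log2 difference of the members was 0.08 with stimulation and 0.11 without, beside 0 and 0.01 over all genes. The first turned to -0.02 without stimulated Gpx4-deficient replicate 3, and the second to -0.01 without both libraries that stood apart. Summed markers of plasma cells had 85.4 to 145 CPM in stimulated Gpx4-deficient and 19.8 to 25.4 CPM in stimulated wild-type libraries, and those of CD8 and NK cells had 16.8 to 23.8 CPM in stimulated Gpx4-deficient and 45.6 to 55.8 CPM in stimulated wild-type libraries. Without stimulation, summed neutrophil markers had 1.30 to 8.07 CPM in Gpx4-deficient and 47.2 to 169.7 CPM in wild-type libraries, with all 7 separated lower. The mitochondrial share was 1.72% to 1.94% in unstimulated Gpx4-deficient and 1.21% to 1.39% in unstimulated wild-type libraries, with 11 of 15 genes separated higher. The part of these values in the members' values was not tested.

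In both states and in the same direction, 7 of 81 members separated (8.64%), beside 3.94% of all genes tested. These were Rps29, Rps28, Rps27, Rpl37a, Rpl39 and Rpl23, higher, and Rpl7l1, lower. The states share no libraries.

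The members that were higher and those that were lower in stimulated Gpx4-deficient cells differed in size, a pattern looked for after the values had been seen. Of the 14 separated upwards, the coding lengths ran from 153 to 471 nt. Of the 16 separated downwards, 14 had coding lengths from 480 to 1257 nt, and the others were Rpl41, the shortest protein of the set at 75 nt, and the pseudogene Rps4l. Among the 79 tested members with a coding sequence, the rank correlation of the log2 difference with coding length was -0.738 in stimulated and -0.549 in unstimulated cells. The comparison was with 2527 other genes of at least 5 in mean log2 CPM, coding no longer than the longest member. Among them the correlation was -0.065 and 0.09. These genes were not matched to the members in length or level, and 1768 of them coded 612 to 1257 nt, against 20 members. These correlations are across genes that share libraries and partly share reads, and no p is given.

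Over 4 classes of coding length the medians fell stepwise. The 20 shortest members (75 to 357 nt) had a median log2 difference of 0.33 in stimulated cells, with 19 above 0. The second class (366 to 453 nt) had 0.21 and the third (456 to 609 nt) -0.07. The 20 longest (612 to 1257 nt) had -0.26, with 18 below 0. Other genes of the same lengths had medians of 0.09, -0.01, -0.03 and -0.10. Without stimulation the member medians were 0.28, 0.13, 0.03 and -0.01, beside -0.12, -0.14, -0.13 and -0.10 for the other genes.

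**Figure D4:**
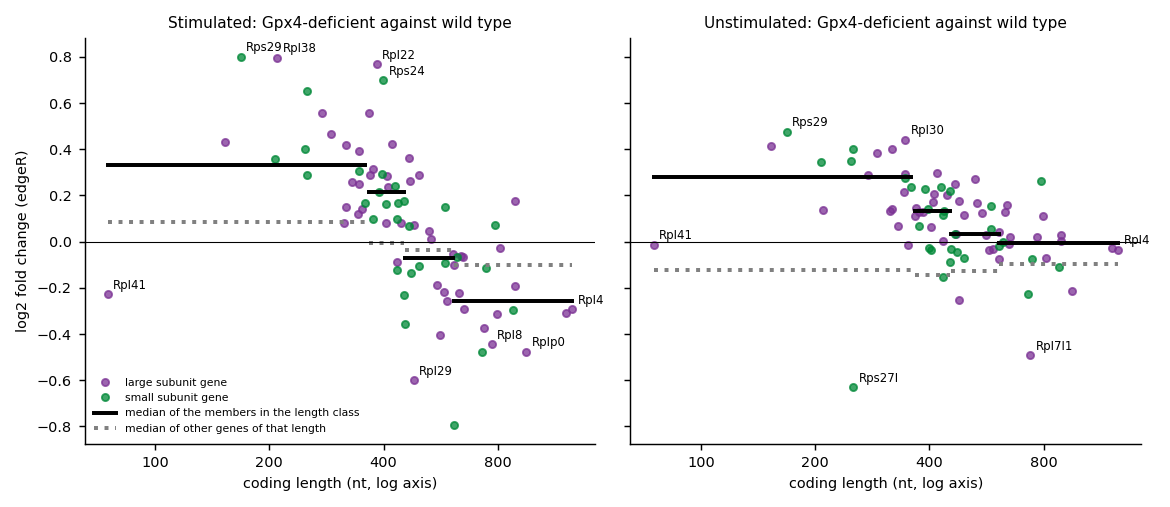
Log2 fold change of Gpx4-deficient against wild-type cells (y axis) over coding length in nt (x axis, log scale) for 79 members, in stimulated cells (left) and unstimulated cells (right). Points are genes, solid bars are the median of the members in each class of coding length and dotted bars the median of other genes of that length. In stimulated cells the member medians run from 0.33 in the shortest to -0.26 in the longest class.

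The pattern was present in both subunits, at -0.713 in 49 large subunit members and -0.809 in 30 small subunit members in stimulated cells. It was -0.739 in the 36 members with at most 50% shared sequence and -0.722 in the 43 with more. Longer members were also more abundant (rank correlation of coding length with mean level 0.615), and the log2 difference followed the mean level too, at -0.621. Within the 40 members at or below the median level the correlation with coding length was -0.622, and within the 39 above it -0.539. Over all 79 members the correlation was weaker with the length of the whole transcript, at -0.385, and with GC content, at -0.406.

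The pattern was also described library by library, in the same members and libraries, so this is no independent support. For each library a slope was fitted to the members' deviations from their means over all 12 libraries, in log2 units per doubling of coding length. It was -0.10, -0.09 and -0.31 in stimulated Gpx4-deficient replicates, against 0.23, 0.06 and 0.10 in stimulated wild-type replicates, with no overlap. Without stimulation it was -0.13, -0.04 and 0.05 in Gpx4-deficient and 0.12, 0.06 and 0.05 in wild-type replicates. The highest Gpx4-deficient value there, 0.0494, lay just under the lowest wild-type value, 0.0511. The other genes' slopes were -0.04, 0.07 and -0.13 in stimulated Gpx4-deficient replicates, against 0.09, 0.02 and 0.06 in stimulated wild-type replicates.

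In summed levels, the 20 longest members had 11270, 9578 and 10590 CPM in stimulated Gpx4-deficient cells, all below 13070, 12190 and 12380 CPM in stimulated wild-type cells. The 20 shortest had 3744, 3032 and 4480 CPM in stimulated Gpx4-deficient cells, overlapping 2605, 3181 and 3050 CPM in stimulated wild-type cells. The stimulated Gpx4-deficient libraries are also those with the most mitochondrial RNA and the most genes at 0 counts, and the part of either in this pattern was not tested.

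**Figure D5:**
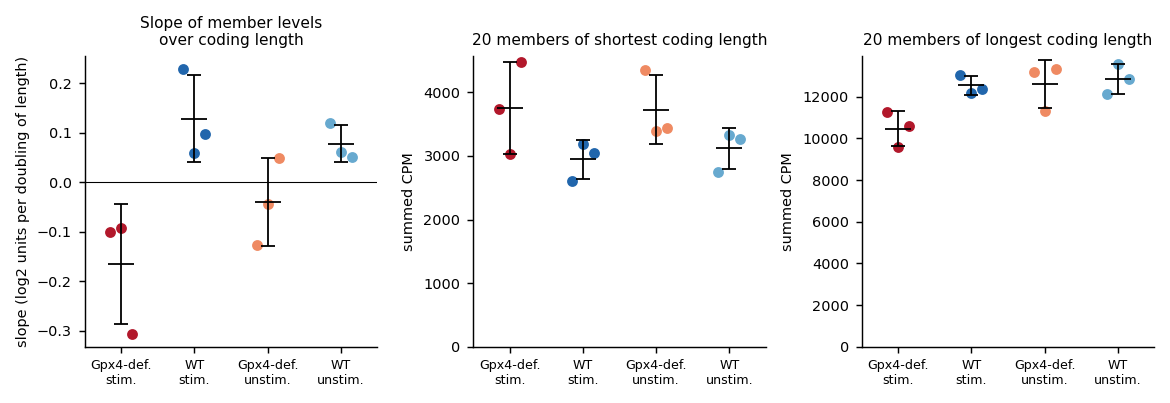
Left, slope of the members' levels over coding length in each library (log2 units per doubling of length). Middle and right, summed CPM of the 20 members of shortest and of longest coding length. Points are libraries, horizontal bars are group means and error bars are SD (n = 3), and the stimulated Gpx4-deficient libraries have negative slopes and the lowest sums of the longest members.

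The stimulation response followed coding length less closely. The rank correlation of the stimulation response with coding length was -0.352 in Gpx4-deficient and 0.068 in wild-type cells, and -0.573 for the interaction, beside -0.115 among the other genes. It followed the mean level more closely, at -0.623 in Gpx4-deficient cells, -0.346 in wild-type cells and -0.607 for the interaction. In members at or below the median level the correlation with coding length was -0.085 in Gpx4-deficient cells and -0.163 for the interaction, and in those above it -0.142 and -0.492. These values were not tested.

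Ribosomal proteins outside the name rule add Rpsa, a small subunit protein also known as the laminin receptor. It had 798.0, 615.2 and 686.7 CPM in stimulated Gpx4-deficient cells, against 1235, 1076 and 1035 CPM in stimulated wild-type cells. It was lower by 0.67 on the log2 scale (SE 0.11, adjusted p = 0.0104 by edgeR). It was the only one called of 5 such genes, which include Rps3a1, Fau and the ribosome-bound scaffold Rack1. Of the 18 other TOP mRNAs, Eef2, the elongation factor of translocation, and Npm1, a nucleolar chaperone, were lower in stimulated Gpx4-deficient than in wild-type cells. Vim was higher. Of all genes tested, 2.27% were called in this comparison (1.03% higher and 1.25% lower), and no difference between lists was tested. Eef2 had 1213, 1190 and 1290 CPM in stimulated Gpx4-deficient cells, against 1948, 1713 and 1570 CPM in wild-type cells (-0.50, SE 0.09, adjusted p = 0.013 by edgeR).

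The paralogues that are minor forms varied in their own ways. Rps4l, a pseudogene by annotation, had 4.02, 0 and 0 CPM in stimulated Gpx4-deficient replicates, against 10.0, 8.27 and 4.17 CPM in stimulated wild-type replicates (adjusted p = 0.478 by edgeR). Without stimulation it had 10.6, 4.84 and 4.83 CPM in Gpx4-deficient and 8.71, 15.2 and 9.64 CPM in wild-type replicates. Rpl6l stayed between 0.447 and 2.05 CPM in all 12 libraries. Rpl36a, the relative of Rpl36al, had 89.9, 44.1 and 91.2 CPM in stimulated and 90.4, 68.6 and 67.2 CPM in unstimulated Gpx4-deficient cells, which overlapped. Rps4x averaged 476.6 ± 117 CPM in stimulated Gpx4-deficient cells and 453.6 ± 20.6 CPM in stimulated wild-type cells (SD, n = 3 each). Rpl39 had 80.8, 79.2 and 103.6 CPM in stimulated Gpx4-deficient cells, all above 58.9, 70.7 and 66.1 CPM in wild-type cells (0.43, SE 0.19, adjusted p = 0.267 by edgeR).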

How the data were processed

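RNA-seq libraries (12, from 600 ng of RNA each, with a stranded mRNA kit per the labels) were deposited as 1 table of RSEM expected counts per gene symbol, made by the authors. Per the submitters' processing notes the genome was GRCm38. Which aligner, annotation and versions were used is not stated in the labels or the table. All 12 columns matched a sample. Between 14.8% and 18.1% of values per library were not whole, and all were rounded before testing.

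edgeR 4.0.16 in R 4.3.3 (TMM, filterByExpr, robust quasi-likelihood F test) fitted 4 group means over all 12 libraries with 8 residual degrees of freedom, and p-values were Benjamini-Hochberg adjusted over 14827 genes. SE derives from the F statistic. At 5 CPM the smallest library holds 123 counts. DESeq2 1.42.0 and limma 3.58.1 were alternatives. The scripts were tested on simulated data. Gene positions and lengths are from GENCODE M21, with 1 transcript per gene (lowest APPRIS number, then best support level, then shortest), and start-site windows are from RefSeq.

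The members and lists were chosen with earlier results of these data known. Named genes are up to 8 called members per direction and comparison. Where under 4 were called they are the 4 of largest log2 fold change among those whose mean log2 CPM is 5 or more. Paralogue pairs, the 4 highest and lowest members per kb and up to 4 genes of each other list were also named. Every other named gene, the coding length pattern and the members DESeq2 called were chosen after their values were seen. Rpl3l and Rpl10l were not analysed here. Results for some ribosomal protein genes are not reported here, though counts and sums over the members include them.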

Additional observations from a re-analysis of the deposited data

How the results depend on the processing

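Genotype differences in stimulated cells depended most on the tool. The count of members called was 0 by edgeR, 1 with upper-quartile scaling, 1 with total counts, 2 with limma-voom, 11 with DESeq2, 2 without both libraries that stood apart (added after seeing the data) and 0 to 5 leaving out 1 library. On stimulation of wild-type cells the count was 5, against 3 without mitochondrial genes, 3 without the filter on low counts, 3 with limma-voom, 3 with pseudogene rows added, 10 with DESeq2, 12 from the 6 libraries of the comparison alone and 1 to 3 leaving out 1 library. For Gpx4-deficient cells the count was 16, against 5 from 6 libraries, 8 without both libraries apart and 7 to 19 leaving out 1. Other settings called more there. DESeq2 called 7 higher and 15 lower, limma-voom 5 and 14, upper-quartile scaling 4 and 15, and total counts 5 and 14. For the interaction the count was 0, and 0 to 2 leaving out 1. From 6 libraries the wild-type stimulation count was above the Gpx4-deficient one, and over all libraries it was below. The causes were not tested. Shares of all genes called under the other settings are not given here, so a changed count is not particular to the members. Fits to 6 or 11 libraries have fewer degrees of freedom, and their counts lay on both sides of those from all libraries.

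Sample titles repeat the replicate numbers in both states, and nothing states whether a number stands for the same mouse. Correlations of same-numbered deviations were -0.021 to 0.053, and of differently numbered ones -0.043 to 0.025. With 3 libraries per group such values cannot exclude pairing, and the main fit used none. With the replicate block the counts were 1 in wild-type and 13 in Gpx4-deficient stimulation and 0 otherwise.

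The genotype difference in the members' share reversed without unstimulated wild-type replicate 1 (-0.0492) or unstimulated Gpx4-deficient replicate 1 (-0.0144), with a range of -0.0492 to 0.193, and in stimulated cells without Gpx4-deficient replicate 2 (0.00618), with a range of -0.199 to 0.00618. Of 21 calls of single members, none changed sign, with 184 repeats kept and 47 lost over other settings, and 75 kept and 51 lost leaving out 1 library. The rank correlation with coding length ran from -0.763 to -0.709 in stimulated and -0.588 to -0.452 in unstimulated cells over 17 settings each. limma-voom shifted the median of all genes by -0.21 in stimulated genotype and -0.257 in Gpx4-deficient stimulation comparisons. At 1 CPM a library holds few counts, which limits Rpl6l, Rpl32l and Rpl39l.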
